A study of Populus tomentosa with 12 samples.

Results

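A group of 36 genes was abundant in every RNA-seq library of Populus tomentosa, the Chinese white poplar, from roots as well as shoots. The genes were chosen by their own level: each had at least 400 CPM (reads of the gene per 1000000 reads counted in genes, without further scaling) in all 12 libraries. They are 36 of the 42950 gene IDs listed. The 36 genes are 27.1% of the 133 IDs that reached 400 CPM in all 6 root libraries, and 18.9% of the 190 IDs that reached it in all 6 shoot libraries. Levels in these libraries chose the genes, so the levels are given as a description.

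Plantlets at the seedling stage were propagated in vitro on woody plant medium with sucrose and the auxin NAA, and moved to the same medium in liquid form. It held either 0 µM Fe (Fe-deficient) or 100 µM Fe (Fe-sufficient). The groups are Fe-deficient roots, Fe-sufficient roots, Fe-deficient shoots and Fe-sufficient shoots, with 3 libraries each, called biological replicates in the labels' protocols. The sources used here do not give which plants went into a library, their genotype or how long they were treated, so p-values measure only the spread between these libraries. The titles of the shoot libraries read WT for Fe-deficient and CK for Fe-sufficient plants, with no reason given. The stated Fe supply, not the title, defines the groups here.

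In plants, transcripts that stay abundant in every organ commonly encode the shared machinery of living cells, such as ribosomal proteins, translation factors, ubiquitin, cytoskeletal proteins and enzymes of central metabolism. Iron is needed for heme, for iron-sulfur clusters and for the making of chlorophyll, and plants short of it are known to raise iron uptake in roots and to lose chlorophyll in leaves. Genes that hold their level under such a stress are sought as reference genes for measuring other transcripts. Which proteins the 36 IDs encode cannot be stated here. No file gives a name beside an ID, and 0 of the 42950 IDs were found in the table of 60139 P. tomentosa genes (assembly PTv2). For the same reason the tissues could not be checked against their defining genes, and gene length is unknown. A high CPM therefore means many reads, not necessarily many transcripts.

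Root libraries held 8663523 to 10886552 reads in genes and shoot libraries 5360670 to 6149779. Reads were assigned differently in the tissues. Reads outside any gene made up 1.25% to 1.41% in roots and 49.5% to 50.0% in shoots, out of those with a gene, with none, or with several. Tissue and the way its libraries were made or counted cannot be told apart, and in whole organs fewer cells of a type and less RNA per cell cannot be told apart either. The lowest count of any of the 36 genes in any library was 2354 reads. Taken from a gene's mean count in a group, counting error alone gives a coefficient of variation (CV) of at most 1.86%.

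The 36 genes, 0.0838% of the IDs listed, took between 3.27% and 4.82% of the reads in genes of a library. Their summed share of reads in genes was 3.27%, 3.43% and 3.53% in Fe-deficient roots, and 3.63%, 3.56% and 3.61% in Fe-sufficient roots. It was 4.82%, 4.15% and 4.56% in Fe-deficient shoots, and 4.19%, 4.15% and 4.41% in Fe-sufficient shoots. The root groups did not overlap, with every Fe-deficient library below every Fe-sufficient one, while the shoot groups overlapped. Without the 10 genes highest in mean CPM the root groups overlapped as well. The share was then 1.92%, 1.99% and 2.16% in Fe-deficient and 2.10%, 2.13% and 2.06% in Fe-sufficient roots. The means of all 36 genes were 3.41% ± 0.128 in Fe-deficient and 3.60% ± 0.0375 in Fe-sufficient roots (SD, n = 3 each). In shoots they were 4.51% ± 0.338 in Fe-deficient and 4.25% ± 0.136 in Fe-sufficient libraries (SD, n = 3 each). Against all reads listed in a file, reads given to no gene included, the means were 1.34% ± 0.142 in Fe-deficient and 1.39% ± 0.0836 in Fe-sufficient roots, and 1.22% ± 0.101 in Fe-deficient and 1.15% ± 0.0421 in Fe-sufficient shoots (SD, n = 3 each). On this basis the Fe supplies overlapped in roots, and the order of the tissues turned: root libraries ran from 1.19% to 1.47% and shoot libraries from 1.12% to 1.32%, with overlap.

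All genes at 400 CPM or more in a given library numbered 214 to 242 in roots and 266 to 276 in shoots. They took 16.1% ± 0.595 of reads in genes in Fe-deficient roots and 17.0% ± 0.289 in Fe-sufficient roots (SD, n = 3 each). In shoots their share was 28.1% ± 1.15 in Fe-deficient and 35.0% ± 2.16 in Fe-sufficient libraries (SD, n = 3 each). The 36 genes thus stood higher in the ranking of roots than in that of shoots. Among the 100 genes with most reads in a library were 28 to 31 of them in Fe-deficient roots and 24 to 30 in Fe-sufficient roots. In shoots the numbers were 16 to 22 in Fe-deficient and 12 to 18 in Fe-sufficient libraries.

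**Figure D1:**
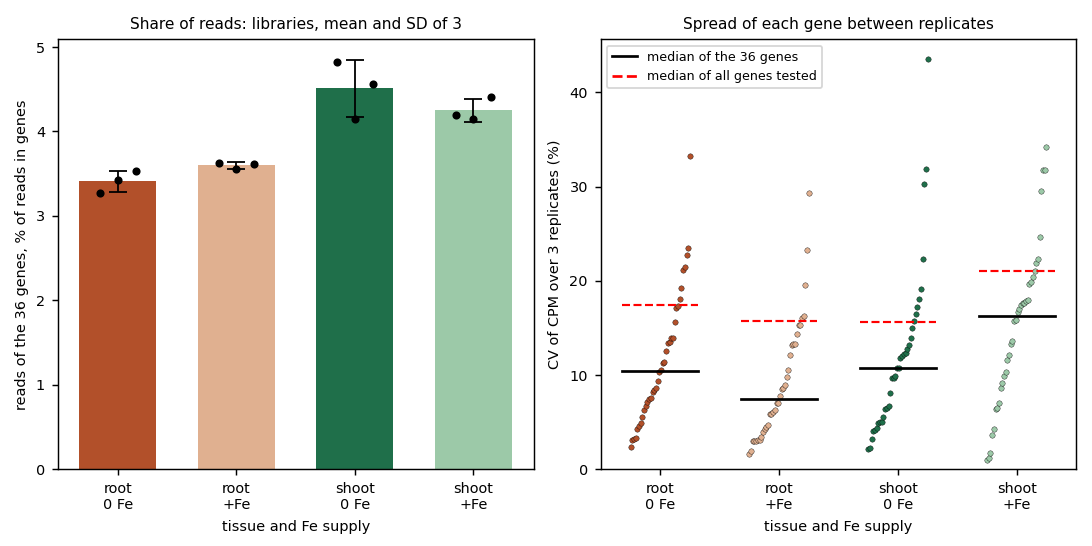
Left, the share of reads in genes taken by the 36 genes, in percent, for each library (points) with the mean (bar) and SD of 3 libraries; all root libraries, up to 3.63%, lie below all shoot libraries, from 4.15%, an order that does not hold as a share of all reads listed (1.19% to 1.47% in roots, 1.12% to 1.32% in shoots). Right, the CV of CPM over 3 replicates for each of the 36 genes (points), with their median (black line) and the median of all genes tested in that tissue (red dashed line); the medians of the 36 genes, 7.44% to 16.3%, lie below those of all genes in each group.

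Reads were unevenly spread within the set. The 5 genes with the highest mean CPM held 29.3% of the reads of all 36, taken over the mean of the 12 libraries. Potri.006G130900, the highest, had 2351, 2246 and 2215 CPM in Fe-deficient roots and 2334, 2259 and 2298 CPM in Fe-sufficient roots. In shoots it had 4368, 3261 and 4173 CPM without Fe and 3776, 2417 and 3528 CPM with Fe. All 6 root libraries lay close together, and below all shoot libraries, among which replicate 2 was the lowest with either Fe supply.

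Potri.004G015300, the second by mean, had 1421, 2253 and 2862 CPM in Fe-deficient roots and 2213, 1825 and 2488 CPM in Fe-sufficient roots. Its shoot levels were 4007, 3295 and 3270 CPM without Fe and 2955, 2568 and 2766 CPM with Fe. Here the spread lay in the roots, and the CV of 33.2% in Fe-deficient roots was the highest of the 36 genes in that group. The other 3 of the top 5, Potri.006G126800, Potri.001G418500 and Potri.003G222700, are described with the tissues and with Fe supply. The remaining 31 genes averaged between 555 CPM (Potri.004G106800) and 1836 CPM (Potri.011G134200) over the 12 libraries.

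The IDs of the 36 genes carry 16 different chromosome fields. The field of chromosome 1 (Potri.001G) holds 7 of them, or 19.4%, against 11.4% of all listed IDs. Potri.001G355600 and Potri.001G356900 are listed with 13 other IDs between them, and so are Potri.014G024100 and Potri.014G025400. Sequence likeness between these IDs, and so any sharing of reads, was not analysed here. How the counting treated strand is not known either.

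Levels in roots and shoots were then compared. The genes kept a partly shared order: across the 36 genes the Spearman correlation of mean CPM between roots and shoots was 0.562, against 0.889 between Fe-deficient and Fe-sufficient roots and 0.910 between Fe-deficient and Fe-sufficient shoots. These are descriptions across genes, which are not independent replicates, and libraries of a tissue share their read assignment. In 4 genes every root library lay above every shoot library, and in 8 every shoot library lay above every root library. The other 24 overlapped, and over all 25046 genes tested 56.6% did not overlap.

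Potri.001G418500 leaned most towards roots. It had 2086, 2347 and 1587 CPM in Fe-deficient roots and 3224, 2905 and 2828 CPM in Fe-sufficient roots, against 1568, 1229 and 1364 CPM in Fe-deficient shoots and 1080, 1055 and 1188 CPM in Fe-sufficient shoots. Its mean CPM in roots was 2 times that in shoots, with the lowest root library just above the highest shoot library. Next by this ratio came Potri.001G102400, with 1.53 times, whose tissues overlapped. It had 988, 1048 and 1076 CPM in Fe-deficient roots and 1041, 1198 and 898 CPM in Fe-sufficient roots. Its shoot levels were 755, 460 and 1142 CPM without Fe and 539, 637 and 554 CPM with Fe.

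Potri.003G222700 leaned most towards shoots. It had 935, 726 and 758 CPM in Fe-deficient roots and 732, 742 and 777 CPM in Fe-sufficient roots, against 3636, 3008 and 3492 CPM in Fe-deficient shoots and 2596, 2031 and 2603 CPM in Fe-sufficient shoots. Its mean root level was 0.269 times its mean shoot level, with a wide gap between the tissues. Potri.006G126800 followed with 0.317 times, and Potri.002G009800 with 0.334 times. By library totals Potri.018G030700 stood near equality, and averaged 686 and 647 CPM in Fe-deficient and Fe-sufficient roots, and 701 and 626 CPM in Fe-deficient and Fe-sufficient shoots. With TMM (trimmed mean of M-values, edgeR's correction for the make-up of a library), the scale of the tests, it was lower in roots (log2 fold change, roots over shoots, -0.40 ± 0.102, SE; adjusted p by edgeR 0.00262).

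**Figure D2:**
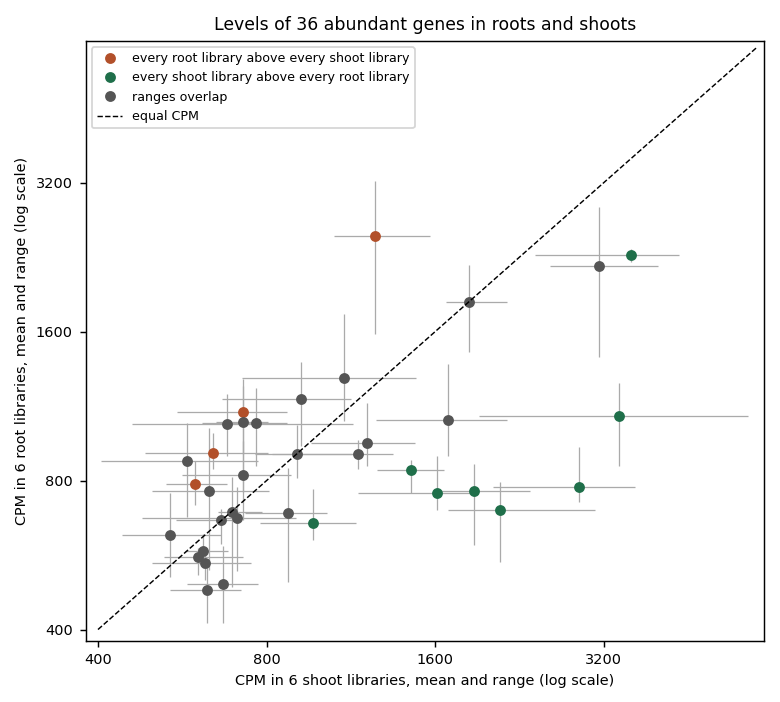
Mean CPM in the 6 root libraries against mean CPM in the 6 shoot libraries for each of the 36 genes, both on log scales, with lines from the lowest to the highest library and a dashed line of equal CPM. The 4 orange genes are higher in every root library, the 8 green genes are higher in every shoot library, and the ranges of the 24 grey genes overlap.

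On the scale of the tests, which uses TMM, 24 of the 36 genes differed between roots and shoots, where 73.5% of all 25046 genes tested did (adjusted p under 0.05 by edgeR's quasi-likelihood test). Of these, 1 was higher in roots, Potri.001G418500 (log2 fold change, roots over shoots, 0.58 ± 0.130, SE; adjusted p by edgeR 0.00112), and 23 were lower, where 37.9% of all genes tested were higher and 35.6% lower. The 95% interval of the log2 fold change lay within a 2-fold change either way for 21 of the 36 genes, against 35.8% of all. The rule asks for a high level in both tissues, so nothing is read from these counts. The split depends on scaling. With library totals only, 9 were higher and 15 lower in roots, and the median log2 fold change of all genes tested moved from 0.06 to 0.47. The median of the 36 genes was -0.50 with TMM and -0.09 with library totals. Potri.003G222700 was lower in roots on either scale, with log2 fold changes of -2.28 ± 0.133 (SE; adjusted p by edgeR 1.69e-09) and -1.87. Potri.015G091400, Potri.013G128600 and Potri.006G114800, whose root libraries all lay above the shoot ones in CPM, had log2 fold changes of 0.19, 0.10 and -0.01 with TMM, none past the threshold (adjusted p by edgeR 0.166, 0.493 and 0.964). Potri.001G102400 did not pass either (log2 fold change 0.22, adjusted p by edgeR 0.290), but did with library totals (0.63, adjusted p 0.00479) and without Fe-deficient shoot replicate 3 (0.41, adjusted p 0.0258).

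**Figure D3:**
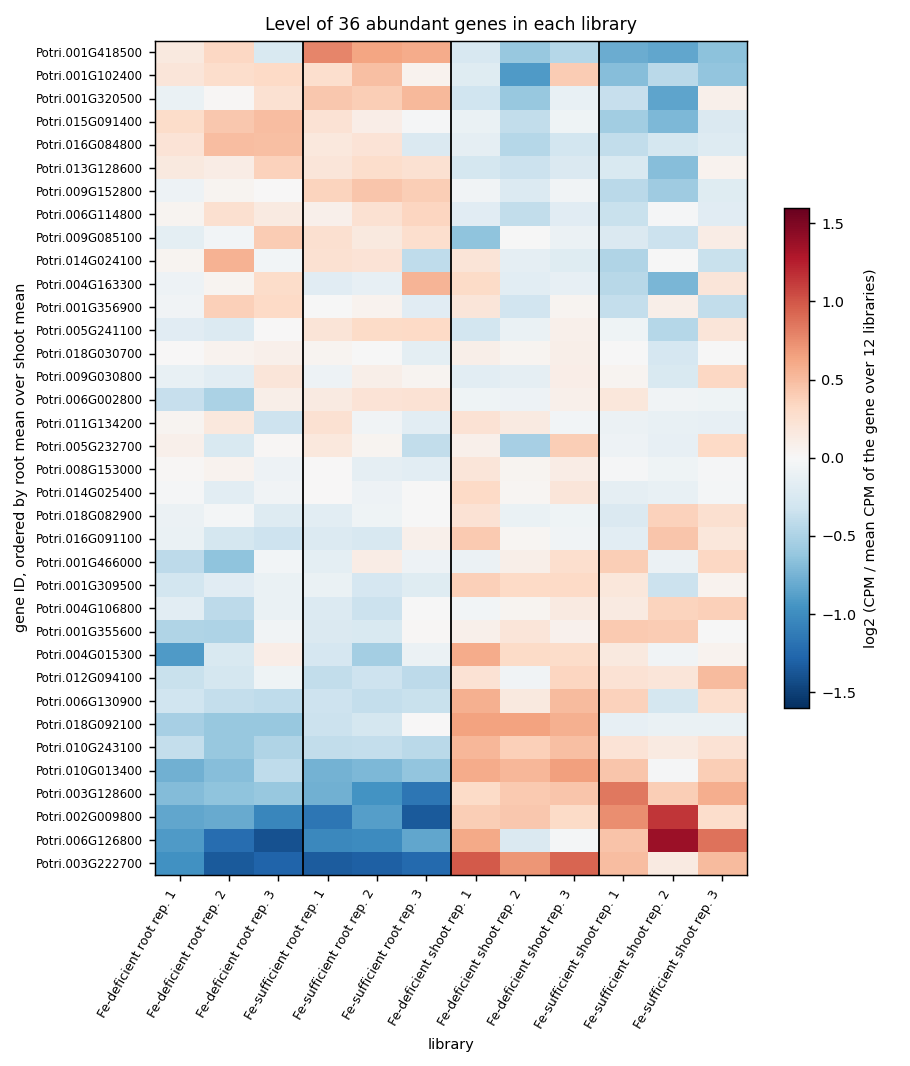
Level of each of the 36 genes (rows, ordered by root mean over shoot mean) in each of the 12 libraries (columns), as log2 of CPM over the gene's mean CPM of 12 libraries. Potri.001G418500 at the top is highest in the Fe-sufficient roots, Potri.003G222700 at the bottom is below its mean in all root libraries, and Potri.018G092100 stands apart in the Fe-deficient shoots.

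The stability of the 36 genes was described by the CV of CPM over the 3 replicates of a group. The median CV of the 36 genes was 10.4% in Fe-deficient roots and 7.44% in Fe-sufficient roots, where all 23785 genes tested in roots had medians of 17.5% and 15.7%. In Fe-deficient shoots it was 10.8% and in Fe-sufficient shoots 16.3%, where all 21665 genes tested had medians of 15.7% and 21.1%. Genes with more reads carry less counting error, and the rule itself asks for no low library, so the medians are set side by side as a description. How far the choice of genes bears on their CV was not tested. Replicate spread was largest in Fe-sufficient shoots, where 25 of the 36 genes had a CV above 10%, against 19 in Fe-deficient shoots, 19 in Fe-deficient roots and 13 in Fe-sufficient roots.

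The lowest spread was that of Potri.008G153000, with a mean CV over the 4 groups of 4.51%. It had 605, 623 and 566 CPM in Fe-deficient roots and 597, 541 and 533 CPM in Fe-sufficient roots. In shoots it had 682, 617 and 651 CPM without Fe and 590, 571 and 588 CPM with Fe. From the lowest to the highest of the 12 libraries this is 1.28-fold, the narrowest range among the 36 genes. On the scale of the tests, however, Potri.008G153000 was lower in roots (log2 fold change, roots over shoots, -0.50 with SE 0.0990, adjusted p by edgeR 0.000388). Potri.010G243100 (4.70%) and Potri.018G092100 (5.22%) had the next lowest mean CV, and their levels differed between groups in CPM too. Potri.010G243100 averaged 818 ± 62.1 and 866 ± 17.3 CPM in Fe-deficient and Fe-sufficient roots, and 1581 ± 88.1 and 1314 ± 47.7 CPM in Fe-deficient and Fe-sufficient shoots (SD, n = 3 each). With TMM its Fe supplies overlapped in shoots (log2 fold change, Fe-deficient over Fe-sufficient, 0.07 ± 0.168, SE; adjusted p by edgeR 0.965).

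The highest mean CV belonged to Potri.004G163300 (24.1%), Potri.006G126800 (22.2%) and Potri.014G024100 (20.1%), the 3 genes above 20%. Potri.004G163300 had 1058, 1096 and 1735 CPM in Fe-sufficient roots and 880, 722 and 1372 CPM in Fe-sufficient shoots, so that in either tissue 1 library with Fe stood well above the other 2. Without Fe it had 1132, 1235 and 1469 CPM in roots and 1481, 1064 and 1094 CPM in shoots. Potri.014G024100 had 718, 1024 and 677 CPM in Fe-deficient roots and 824, 813 and 527 CPM in Fe-sufficient roots. Its shoot levels were 807, 632 and 611 CPM without Fe and 499, 698 and 548 CPM with Fe.

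Over all 12 libraries the highest level of a gene was, at the median of the 36 genes, 1.99 times its lowest, where it was 3.81 times over the 22444 tested genes with reads in every library. The rule kept genes without a low library, so these are set side by side as a description. A range under 1.5-fold was found in 5 genes, Potri.008G153000, Potri.018G030700, Potri.014G025400, Potri.009G030800 and Potri.011G134200. All 5 were lower in roots than in shoots on the scale of the tests (adjusted p by edgeR 0.000388, 0.00262, 0.000434, 0.00822 and 0.0115, in that order). With TMM-scaled CPM, an alternative chosen after the data were seen, the median range was 2.17-fold and 2 genes were under 1.5-fold, Potri.009G152800 (1.43) and Potri.006G114800 (1.49). No gene was under 1.5-fold on both scales: Potri.008G153000, the narrowest in CPM, had a TMM-scaled range of 1.65-fold.

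The first Fe comparison asked whether these genes respond to Fe deficiency in roots. None of the 36 passed the threshold (edgeR's quasi-likelihood test on all 23785 genes tested), where 0.563% of all genes did, 0.193% higher and 0.37% lower without Fe. That share rests on 134 genes, and leaving out any 1 of the 6 root libraries took it to between 0 genes (without Fe-sufficient replicate 2) and 71, with 3 without Fe-deficient replicate 1. An unadjusted p under 0.05 was found in 6 of the 36 genes (16.7%), against 15.2% of all genes tested. DESeq2 called 3 of the 36, where it called 4.29% of all genes. Log2 fold changes, Fe-deficient over Fe-sufficient, ran from -0.61 to 0.29 with a median of -0.07, and 25 of 36 were below 0, against 48.7% of all genes tested. The typical size of a change was 0.12 on the log2 scale (median of absolute values), against 0.23 over all genes. Replicates of the Fe supplies did not overlap in 9 genes (25%), 3 higher and 6 lower without Fe. Of all genes tested, 21.4% did not overlap, 2428 higher and 2662 lower. The 95% interval of the log2 fold change, not adjusted for the number of genes, lay within a 2-fold change either way for 35 of the 36 genes, against 65.3% of all genes. The median SE was 0.14 for the 36 genes and 0.22 for all. Genes with more reads carry less counting error, and the rule asks for a high level with either Fe supply. Sizes and intervals are thus set side by side as a description.

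The smallest p in roots was that of Potri.009G152800. It had 855, 936 and 913 CPM in Fe-deficient roots and 1156, 1230 and 1191 CPM in Fe-sufficient roots. All 3 libraries without Fe were lower than all 3 with Fe, and the CV was under 5% in either group. The log2 fold change was -0.44 ± 0.116 (SE; 95% interval -0.71 to -0.17; adjusted p by edgeR 0.134), and it did not pass the threshold, while DESeq2 gave an adjusted p of 0.00591. In shoots the same gene had 870, 775 and 871 CPM without Fe and 671, 613 and 794 CPM with Fe, which overlapped.

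DESeq2 also called Potri.005G241100 and Potri.001G418500 in roots. Potri.005G241100 had 680, 665 and 775 CPM in Fe-deficient roots and 889, 955 and 961 CPM in Fe-sufficient roots, without overlap (log2 fold change -0.44 ± 0.121, SE; adjusted p 0.151 by edgeR and 0.0187 by DESeq2). For Potri.001G418500, whose root levels are given above, the log2 fold change was -0.61 ± 0.181 (SE; adjusted p 0.177 by edgeR and just under 0.05 by DESeq2). It was the widest change among the 36 genes in roots, and the only one whose 95% interval, -1.03 to -0.19, reached past a 2-fold change. In the other direction, the highest log2 fold change was that of Potri.016G084800, with 1031, 1245 and 1236 CPM in Fe-deficient roots and 999, 1030 and 757 CPM in Fe-sufficient roots (0.29 ± 0.155, SE; adjusted p by edgeR 0.421).

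The second Fe comparison asked the same of shoots. Again none of the 36 passed the threshold (edgeR's quasi-likelihood test on all 21665 genes tested), where 1.16% of all genes did, 0.632% higher and 0.531% lower without Fe. Leaving out 1 library took these 252 genes to between 64 (without Fe-deficient replicate 1) and 571 (without Fe-sufficient replicate 2), with 72 without Fe-deficient replicate 2, 114 without Fe-sufficient replicate 1 and 127 without Fe-deficient replicate 3. An unadjusted p under 0.05 was found in 5 of the 36 genes (13.9%), against 9.09% of all genes tested. DESeq2 called Potri.006G126800 and Potri.018G092100, 2 of the 36, where it called 2.21% of all genes. Log2 fold changes ran from -0.97 to 0.54 with a median of -0.11. The median of absolute values was 0.21 on the log2 scale, against 0.19 over all genes. Replicates did not overlap in 7 genes (19.4%), 1 higher and 6 lower without Fe. Of all genes tested, 14.5% did not overlap, 1530 higher and 1611 lower. The 95% interval lay within a 2-fold change either way for 34 of the 36, against 69.2% of all genes. The median SE was 0.19 for the 36 genes and 0.24 for all, and the same limit from reads and rule holds as in roots.

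In shoots the direction of small changes depends on scaling. The TMM factors were 1.0553 to 1.1011 in Fe-deficient and 0.8894 to 0.9602 in Fe-sufficient shoots. With library totals only, the median log2 fold change of all genes moved from -0.01 to 0.19 and that of the 36 genes from -0.11 to 0.08. Of the 36 genes, 16 were above 0 with TMM and 19 with library totals. Of all 21665 genes tested, 10612 were above 0 with TMM and 16037 with library totals. With library totals the replicates of 11 genes (30.6%) did not overlap, all higher without Fe. Of all genes tested, 21.2% did not overlap, 3985 higher and 600 lower, so the direction is largely that of all genes.

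Potri.006G126800 had the smallest p and the widest change in shoots. It had 3416, 1913 and 2190 CPM in Fe-deficient shoots and 3073, 5786 and 4088 CPM in Fe-sufficient shoots. The groups overlapped in CPM, though not after TMM scaling, and replicate 2 with Fe was the highest library. The log2 fold change was -0.97 ± 0.272 (SE; 95% interval -1.56 to -0.37; adjusted p 0.161 by edgeR and 0.00972 by DESeq2). Without Fe-sufficient replicate 2 the log2 fold change was -0.71. In roots the gene had 1194, 962 and 858 CPM without Fe and 1097, 1115 and 1263 CPM with Fe, which overlapped. The other gene whose 95% interval reached past a 2-fold change was Potri.002G009800, with 1830, 1878 and 1724 CPM in Fe-deficient shoots and 2324, 3086 and 1688 CPM in Fe-sufficient shoots (log2 fold change -0.58 ± 0.221, SE; adjusted p by edgeR 0.382).

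**Figure D4:**
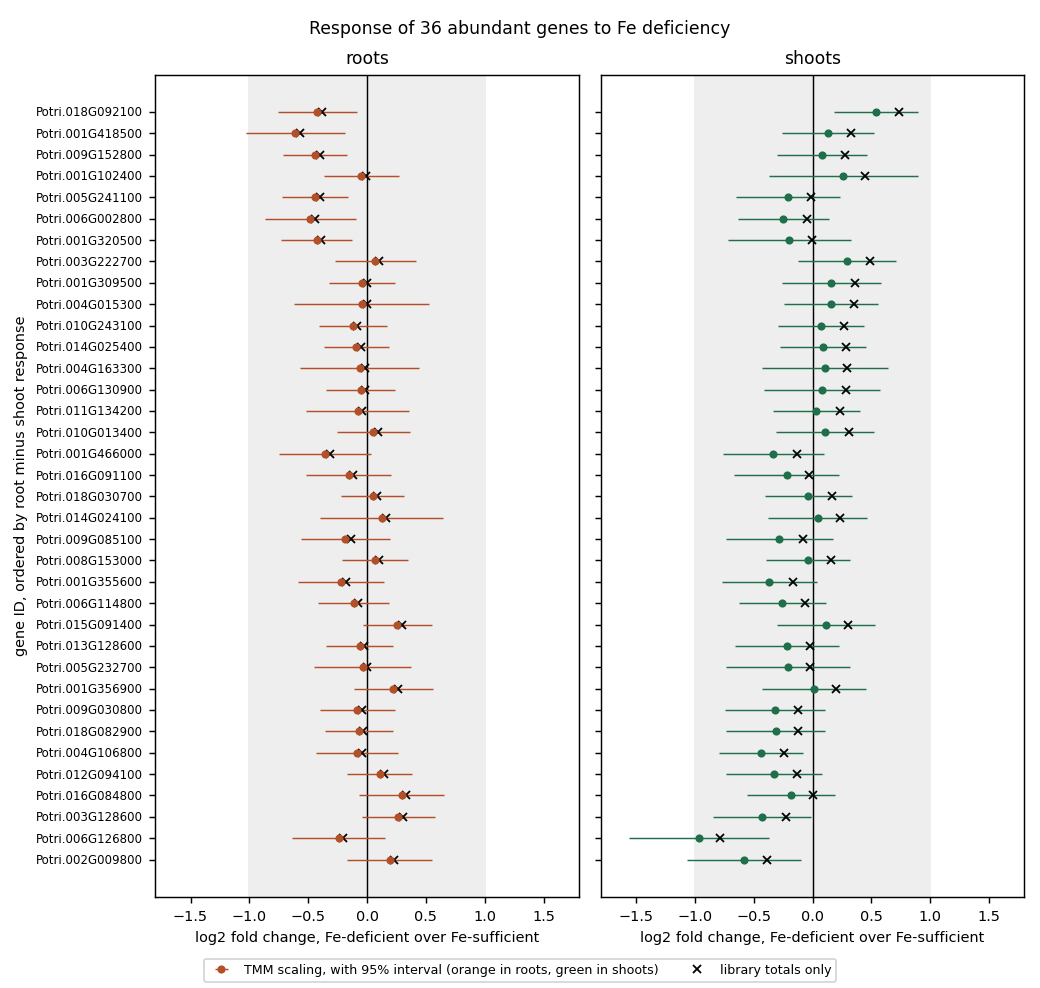
Log2 fold change, Fe-deficient over Fe-sufficient, of each of the 36 genes in roots (left) and shoots (right), with TMM scaling and its unadjusted 95% interval (coloured) and with library totals only (crosses); the grey band marks changes under 2-fold. Of the intervals, 35 in roots and 34 in shoots lie inside the band; the crosses in shoots lie to the right of the points.

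The third comparison tested whether roots and shoots responded differently to Fe deficiency. The test was passed by 1 of the 36 genes, with a difference below 0, where 1.25% of all 25046 genes tested passed it, 0.655% above and 0.595% below 0 (edgeR's quasi-likelihood test). Leaving out 1 library took these 313 genes to between 104 (without Fe-deficient shoot replicate 1) and 264, a fall of over 1.5 times also without Fe-deficient root replicate 1 or 2, Fe-sufficient root replicate 2, Fe-deficient shoot replicate 2 or 3, or Fe-sufficient shoot replicate 1. The 95% interval of the difference lay within 2-fold either way for 30 of the 36, against 37.6% of all genes. The median SE was 0.25 for the 36 genes and 0.37 for all, and the limit from reads and rule holds here too. The gene that passed the test is Potri.018G092100. It had 954, 899 and 902 CPM in Fe-deficient roots and 1083, 1135 and 1379 CPM in Fe-sufficient roots. In shoots it had 2148, 2149 and 2029 CPM without Fe and 1254, 1276 and 1278 CPM with Fe. In roots all libraries without Fe were lower than all with Fe, and in shoots all were higher, there by a gap many times the SD of either group.

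The log2 fold change of Potri.018G092100 was -0.42 ± 0.145 in roots (SE; adjusted p by edgeR 0.229) and 0.54 ± 0.163 in shoots (SE; adjusted p by edgeR 0.207), so neither response passed alone by edgeR. DESeq2 called the shoot response (adjusted p 0.0132) and not the root response (adjusted p 0.127). The difference, root response minus shoot response, was -0.95 ± 0.213 (SE; adjusted p by edgeR 0.0476). Its call is marginal. Without any 1 of the 12 libraries the adjusted p by edgeR was 0.0523 to 0.135, with a log2 difference of -1.02 to -0.83. With library totals only, the shoot response alone passed (log2 fold change 0.73, adjusted p by edgeR 0.0322, where 1.41% of all genes passed), and the difference was -1.12. DESeq2 gave an adjusted p of 2.87e-05 for the difference, and called 3.55% of all genes. It also called Potri.003G128600, with 812, 845 and 866 CPM in Fe-deficient roots and 773, 680 and 592 CPM in Fe-sufficient roots, against 1626, 1765 and 1788 CPM in Fe-deficient shoots and 2366, 1737 and 1963 CPM in Fe-sufficient shoots (log2 difference 0.70 ± 0.242, SE; adjusted p 0.217 by edgeR and 0.0396 by DESeq2).

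**Figure D5:**
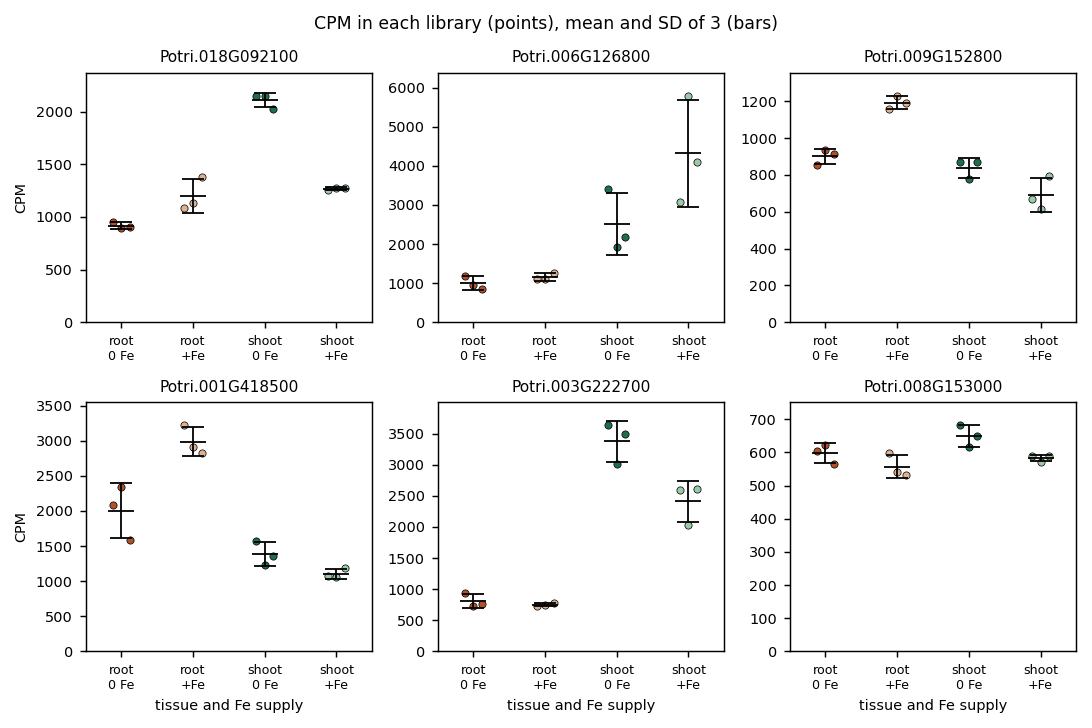
CPM of 6 of the genes in each library (points), with the mean and SD of 3 replicates (bars), by tissue and Fe supply (0 Fe, Fe-deficient; +Fe, Fe-sufficient); each panel has its own axis from 0. Potri.018G092100 is lower without Fe in roots and higher without Fe in shoots, while Potri.008G153000 stays between 533 and 682 CPM. With TMM scaling, not shown in the panels, Potri.008G153000 was lower in roots than in shoots.

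The threshold of 400 CPM in every library passes through a dense range of levels. Just inside lay Potri.001G320500, with a lowest library of 405 CPM, Potri.001G355600 with 412 CPM and Potri.004G106800 with 413 CPM. Just outside lay Potri.009G105300, with a lowest library of 398 CPM, Potri.018G086700 with 396 CPM and Potri.003G043700 with 392 CPM. The genes outside are of like abundance: Potri.009G105300 averaged 523 CPM over the 12 libraries and reached 400 CPM in 11 of them, and Potri.003G043700 averaged 712 CPM and reached it in 10.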

How the data were processed

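RNA-seq of 12 libraries was analysed from raw counts of reads per gene ID, which the authors deposited as 1 file per library without normalization. The tools named are HISAT2 2.0.5 and HTSeq 2.2.1, beside Trimmomatic 0.36 and edgeR 3.16.5, per the submitters' processing notes. Their settings, the build and the annotation are not given in sources used here. The 5 rows of reads given to no gene (58.3% to 64.0% of reads listed in root files, 72.6% to 73.1% in shoot files) stayed out of library sizes and tests. No 2 libraries of a group agreed within counting noise (chi-square over degrees of freedom of at least 5.87).

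CPM is the count over the library's sum of gene counts times 1000000. Tests ran on all genes with the quasi-likelihood test of edgeR 4.0.16 (R 4.3.3; robust, TMM, filterByExpr with a minimum count of 10), with Benjamini-Hochberg adjusted p under 0.05. Each tissue was fitted on its 6 libraries, and the comparisons between tissues on all 12. All 36 genes passed the filter. SE is the absolute log2 fold change over the square root of F. The code was tested on simulated data. Root replicates were numbered in accession order, shoot replicates by title.

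The rule for the set, its lists and the tests were chosen with earlier results of these data known. Genes were named by rule: the 5 highest means, at most 2 per direction past a threshold or else the smallest p, the 3 lowest and 3 highest CV, the 2 highest and 2 lowest root to shoot ratios, and 3 on either side of the level of 400 CPM. Others were named after their values were seen. Gene lists defined on descriptions could not be used, since no ID has one. Alternatives were DESeq2 1.42.0, other scalings, filters, thresholds and levels for the set, 1 fit of all libraries, a replicate block in shoots and leaving out each library.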

Additional observations from a re-analysis of the deposited data

Results flagged for a closer look

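Potri.018G092100 responded differently to Fe deficiency in roots than in shoots, by a test of the difference itself. The response in roots minus that in shoots was -0.95 on the log2 scale (adjusted p by edgeR 0.0476). The call is marginal: the adjusted p was 0.0523 to 0.135 without any 1 of the 12 libraries, 0.0566 with RLE size factors and 0.0541 with no filter on low counts. Libraries without Fe were lower in 3 of 3 roots and higher in 3 of 3 shoots than every library with Fe. With 3 libraries a group, no single library was tested as an outlier.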

How the results depend on the processing

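The counts of called genes among the 36 were 0 in roots, 0 in shoots and 1 for the difference between the responses. DESeq2 gave 3, 2 and 2, where it called 4.29%, 2.21% and 3.55% of all genes (edgeR 0.563%, 1.16% and 1.25%). With library totals only, shoots gave 1, where 1.41% of all genes were called. The single call for the difference became 0 with RLE size factors, with no filter on low counts and at an adjusted p under 0.01. Leaving out each library in turn gave 0 to 0 calls in roots, in shoots and for the difference. Between the tissues it gave 24 to 25 of 36 (24 with all libraries, where 73.5% of all genes were called). With the set taken at 300 CPM or more (74 genes in place of 36), roots gave 2 calls, shoots 0, the difference 2 and the tissues 52. Of all genes tested, 0.563%, 1.16%, 1.25% and 73.5% were called in these comparisons, so nothing is read from these counts. The set itself held 36 to 42 genes without each library, 25 at 500 CPM and 42 with TMM-scaled CPM. The change in the summed share of reads, Fe-deficient minus Fe-sufficient, was -0.188 percentage points in roots (-0.247 to -0.120 without each library, and -0.0485 as a share of all reads listed) and 0.259 in shoots (0.105 without Fe-deficient replicate 1 to 0.440 without Fe-deficient replicate 2). Without the 10 genes highest in mean CPM this change was -0.0695 percentage points in roots and 0.120 in shoots. The mean CV of a gene over the 4 groups had a median of 11.1% across the 36 genes, and of 10.1% to 12.1% without each library. As an SD of log2 CPM this median was 0.163. With the number in the shoot titles taken as a replicate block, edgeR called 0 of the 36 genes and 134 of all genes, against 252 without it. Same-numbered shoot libraries did not deviate together (correlations of -0.159, 0.00292 and 0.125), and 1 of 6 libraries correlated best with its own number. Roots share no label number, so no block was fitted there. No direction of a gene followed through the alternatives (Potri.009G152800 in roots, Potri.006G126800 in shoots, Potri.018G092100 for the difference, and the 4 genes with the highest and lowest root to shoot ratio) was reversed. The cause of these changes was not tested. Counting error gave a CV of at most 1.86% for any of the 36 genes in a group, against median replicate CVs of 7.44% to 16.3%. In Fe-sufficient shoots it was near the replicate CV for some genes. It was 1.17% against a replicate CV of 1.02% for Potri.018G092100, and 1.01% against 1.17% for Potri.011G134200. For Potri.008G153000 it was 1.72% against 1.77%.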
